A study of Mus musculus with 6 samples.

Results

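The mitochondrial ribosomal proteins are described here through the 78 genes, of 16266 in the deposited tables, whose symbol begins with Mrpl or Mrps followed by a digit. By symbol, 49 belong to the large subunit (Mrpl) and 29 to the small subunit (Mrps). RNA came from mouse bone marrow-derived macrophages, which are grown from marrow in culture, in 3 libraries of Capns1 knockout (KO) cells given lipopolysaccharide (LPS) for 24 h and 3 libraries of wild-type (WT) cells given LPS for the same time. All 6 libraries thus carried the LPS stimulus, and unstimulated cells were not analysed here. Capns1 encodes the small regulatory subunit of the classical calpains, and the title of the study places its deletion in the myeloid lineage. No Cre driver, strain or age is given in the sources used here. The genotype field of KO replicates 2 and 3 carries another Capns number than that of KO replicate 1. Capns1 itself stood at 4.36, 4.56 and 4.19 FPKM (read counts scaled by gene length and library total) in the KO libraries, against 225, 219 and 239 FPKM in the WT libraries, so all 3 KO libraries were low. Whether the replicates come from separate animals or cultures is not stated, and p-values here describe only the spread between these libraries, which may be technical.

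The mitochondrial ribosome, or mitoribosome, translates the few proteins encoded by mitochondrial DNA, all of them subunits of the respiratory chain and of ATP synthase. Its RNAs are made inside the organelle, whereas its proteins are encoded in the nucleus, translated in the cytosol and imported. The large subunit holds the centre where peptide bonds form, and the small subunit binds and reads the mRNA. Symbols do not follow structure throughout. Mrps30 and Mrps18a encode proteins that sit in the large subunit of the mammalian mitoribosome, and Mrps36 is now described as part of the oxoglutarate dehydrogenase complex.

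The members had 138 to 4178 counts per library out of totals of 32631163 to 40913819, and all 78 passed the filter on low counts. KO replicate 2 and WT replicate 3 stood apart within their groups on the second principal component of the 12219 tested genes, at 25.5 against -12.6 and -10.4 for the other KO libraries and at -23.2 against 8.21 and 12.4 for the other WT libraries. Summed macrophage markers came to 34480 to 39540 CPM (counts scaled to a common library total) in KO libraries and 36260 to 43490 CPM in WT libraries. All 10 were detected, with 0 higher and 1 lower in KO and a median log2 fold change of -0.14. The lower one was Cd14, at -0.34 (edgeR, adjusted p = 0.0304). Summed fibroblast and stroma markers came to 346 to 419 CPM in KO libraries and 162 to 197 CPM in WT libraries. Of 9 tested fibroblast and stroma markers, 5 rose, and none of the 10 listed was at 0. Neutrophil markers summed to 1259 to 1616 CPM in KO libraries and 1409 to 1747 CPM in WT libraries, with 2 higher and 3 lower of 10. Of 8 dendritic cell markers 3 were tested. Itgax, which macrophages also carry, rose (6.48 ± 0.813 FPKM in KO libraries and 3.202 ± 0.683 FPKM in WT libraries, SD, n = 3 each) and made up most of their sum of 25.4 to 32.9 CPM in KO libraries and 12.4 to 17.4 CPM in WT libraries. The other 7 were at most at 0.158 FPKM in KO libraries and 0.234 FPKM in WT libraries. Flt3, Ccr7, Siglech and Dpp4 were lower on average in KO, and Zbtb46, Clec9a and Xcr1 higher. Of these 7 only Zbtb46 and Dpp4 were tested, with log2 fold changes of 0.34 and -0.06 (edgeR, adjusted p = 0.67 and 0.97). Lymphocyte markers summed to 13.7 to 15.02 CPM in KO libraries and 18.1 to 20.1 CPM in WT libraries. The part of such cells in the values that follow was not tested. In bulk RNA, fewer cells of a type and less RNA per cell cannot be told apart.

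In KO macrophages 7 of the 78 mitoribosomal genes were higher and none was lower. The rises were modest, from 0.38 to 0.76 on the log2 scale. The genes were Mrpl33, Mrpl20, Mrpl12 and Mrpl38, and, by symbol of the small subunit, Mrps28, Mrps6 and Mrps30. The test was edgeR's quasi-likelihood test with a Benjamini-Hochberg adjusted p under 0.05 over all 12219 tested genes, and a gene past it is termed called. The 7 rises are 8.97% of the members, and 8.44% of all tested genes were called higher, so the share of members that rose was near the background. Genes called lower made up 6.21% of all tested genes and 0 of the 78 members. At an unadjusted p under 0.05 edgeR had 19 members (24.4%) higher and 0 lower, beside 14.7% and 13.5% of all tested genes. DESeq2 called 11 members (14.1%) higher and 0 lower, beside 8.88% and 6.88% of the 13743 genes it tested. How far the members' share exceeded that of all genes thus depended on the test and threshold.

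**Figure D1:**
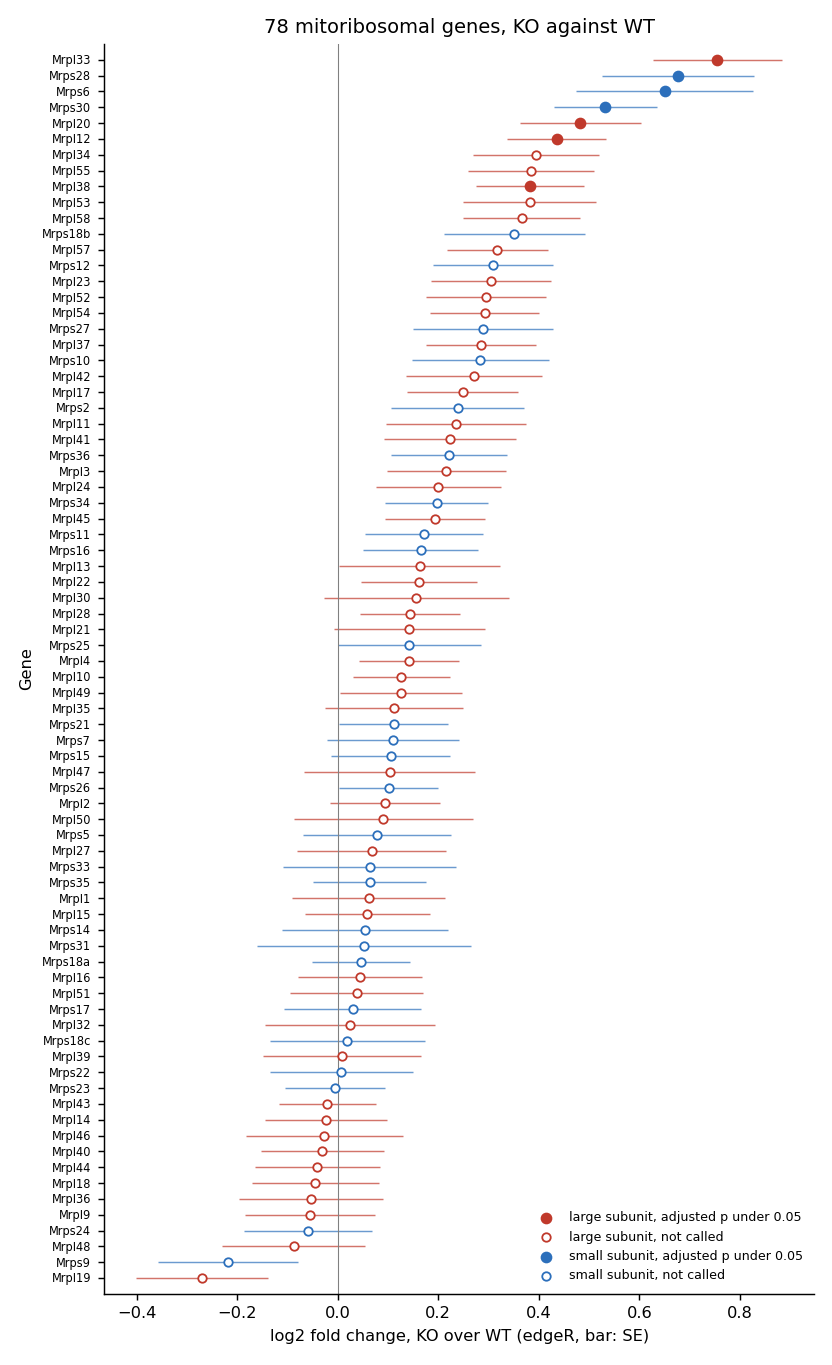
Log2 fold change of each of the 78 genes, KO over WT (x axis, edgeR, bars of 1 SE), ordered by value and coloured by subunit symbol, with filled points for an adjusted p under 0.05. Values ran from 0.76 for Mrpl33 to -0.27 for Mrpl19, and all 7 filled points lie above 0.

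Mrpl33, a large-subunit protein with a bacterial counterpart, had the highest fold change of the 78 genes. Its level was 85.5, 106 and 92.7 FPKM in KO libraries, against 52.9, 62.97 and 50.4 FPKM in WT libraries. Every KO library lay above every WT library. The log2 fold change was 0.76 ± 0.13 SE (edgeR, adjusted p = 0.00253). The gene lies on chromosome 5, 31613951 to 31622644 (GRCm38, as are all positions given here). Exons of Gm43809 on the same strand overlap 261 of the 7326 annotated exon bases of Mrpl33, whose length in the deposited table is only 466. Which exon bases that length covers is not stated, so the part of its count that is uncertain may be large.

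Mrps30, part of the large subunit despite its symbol, had the tightest KO libraries of the called genes. It stood at 22.8, 23.2 and 22.99 FPKM in KO libraries, against 14.8, 15.97 and 16.2 FPKM in WT libraries (chromosome 13, 118380110 to 118387252). The groups did not overlap, and the log2 fold change was 0.53 ± 0.10 SE (edgeR, adjusted p = 0.0050). An exon of a gene on the opposite strand overlaps 623 bases of Mrps30, and reads of both would be told apart only where counting used the strand, which is not stated.

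Mrpl12, the counterpart of the bacterial stalk protein that contacts translation factors, has also been described as a partner of the mitochondrial RNA polymerase. It was the most abundant of the called genes by FPKM, with 102, 114 and 111 FPKM in KO libraries, against 78.04, 81.2 and 78.8 FPKM in WT libraries (chromosome 11, 120484637 to 120488754). The 3 KO libraries were all above the 3 WT libraries, by a log2 fold change of 0.44 ± 0.10 SE (edgeR, adjusted p = 0.0124). Without WT replicate 1 the edgeR adjusted p was 0.0652. A gene on the opposite strand has exons over 200 bases of Mrpl12, with the same limit as for Mrps30.

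Mrpl20, another large-subunit protein with a bacterial counterpart, had 60.5, 74.7 and 67.7 FPKM in KO libraries, against 48.2, 52.6 and 42.5 FPKM in WT libraries (chromosome 4, 155802878 to 155808831). KO replicate 2 was the highest and WT replicate 3 the lowest library, and the groups did not overlap. The log2 fold change was 0.48 ± 0.12 SE (edgeR, adjusted p = 0.0199), and the call was lost without KO replicate 3 or WT replicate 1 (adjusted p = 0.0578 and 0.0697). Without KO replicate 2 and WT replicate 3 together the log2 fold change was 0.31, still with a call.

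Mrpl38 encodes a mitochondria-specific protein of the central protuberance, the crest of the large subunit. Its level was 25.2, 27.3 and 24.9 FPKM in KO libraries, against 18.4, 19.9 and 20.1 FPKM in WT libraries (chromosome 11, 116131817 to 116138868). The log2 fold change was the smallest of the called genes at 0.38 ± 0.11 SE (edgeR, adjusted p = 0.0332). Leaving out any 1 library other than WT replicate 3 ended the call, with an edgeR adjusted p of up to 0.145.

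In the small subunit, Mrps28 had the highest fold change. It stood at 26.9, 40.1 and 34.8 FPKM in KO libraries, against 21.4, 20.7 and 20.8 FPKM in WT libraries (chromosome 3, 8802146 to 8923857). The KO libraries spread widely, the WT libraries lay close together, and the groups did not overlap. The log2 fold change was 0.68 ± 0.15 SE (edgeR, adjusted p = 0.0115).

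Mrps6, a small-subunit protein with a bacterial counterpart, was the lowest of the called genes by FPKM, with 7.17, 8.06 and 9.08 FPKM in KO libraries, against 5.28, 4.46 and 5.48 FPKM in WT libraries (chromosome 16, 92058336 to 92112227). The groups did not overlap, and the log2 fold change was 0.65 ± 0.18 SE (edgeR, adjusted p = 0.0294). The call was lost without KO replicate 2 or 3 or WT replicate 1 or 2 (edgeR adjusted p of up to 0.108) and with the gene length trend removed (0.104). Transcripts of other genes hold 18.3% of the 32-base words of Mrps6, including those of an exon overlap on the same strand, so part of its count is uncertain.

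**Figure D2:**
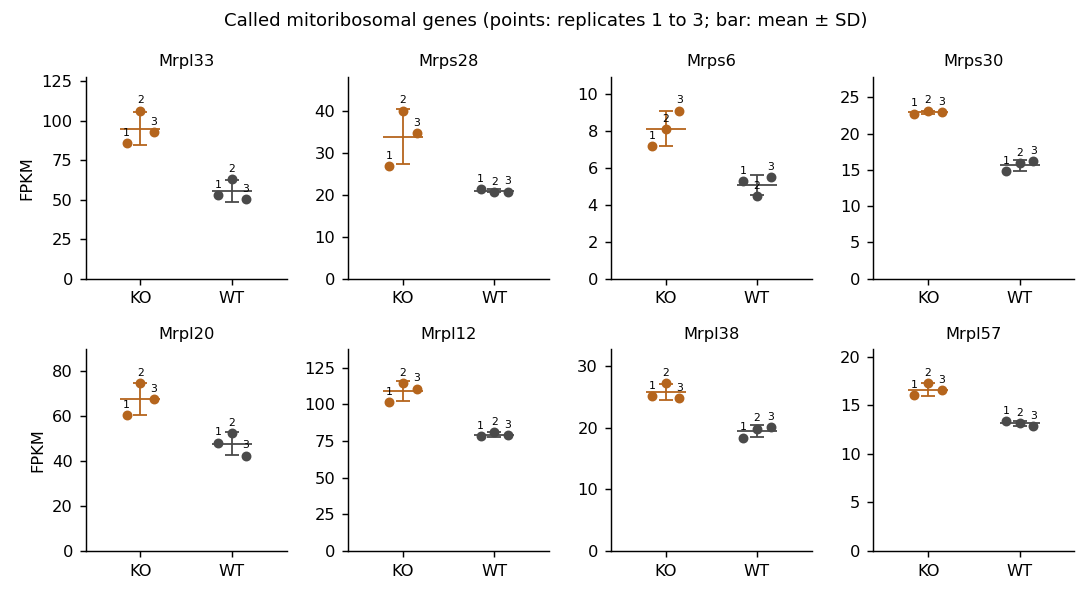
FPKM (y axes, from 0) of the 7 genes called in edgeR and of Mrpl57, called once the trend on gene length was removed, in KO libraries (left) and WT libraries (right), with bars for mean ± SD and replicate numbers beside the points. In each of the 8 panels all KO points lie above all WT points, with means from 109 ± 6.64 in KO and 79.3 ± 1.63 in WT for Mrpl12 to 8.102 ± 0.954 in KO and 5.08 ± 0.5402 in WT for Mrps6.

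Mrpl33, Mrps28 and Mrps30 were called higher in all 18 alternatives of scaling, test, filter, replicate block, gene length and left-out libraries. Mrpl12 was called in 17 of the 18, Mrpl20 in 16, Mrpl38 in 13 and Mrps6 in 12. With the length trend removed, 7 members were again called higher, a share of 8.97% beside 9.82% of all tested genes, and 0 lower, beside 6.57%. That set had Mrpl57 in place of Mrps6. Mrpl57, a mitochondria-specific large-subunit protein, had 16, 17.3 and 16.6 FPKM in KO libraries, against 13.4, 13.2 and 12.9 FPKM in WT libraries. Its groups did not overlap, and its log2 fold change was 0.32 ± 0.10 SE (edgeR, adjusted p = 0.0565, and 0.0287 with the length trend removed). Of the 78 genes, 58 were called in none of the 18 alternatives.

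**Figure D3:**
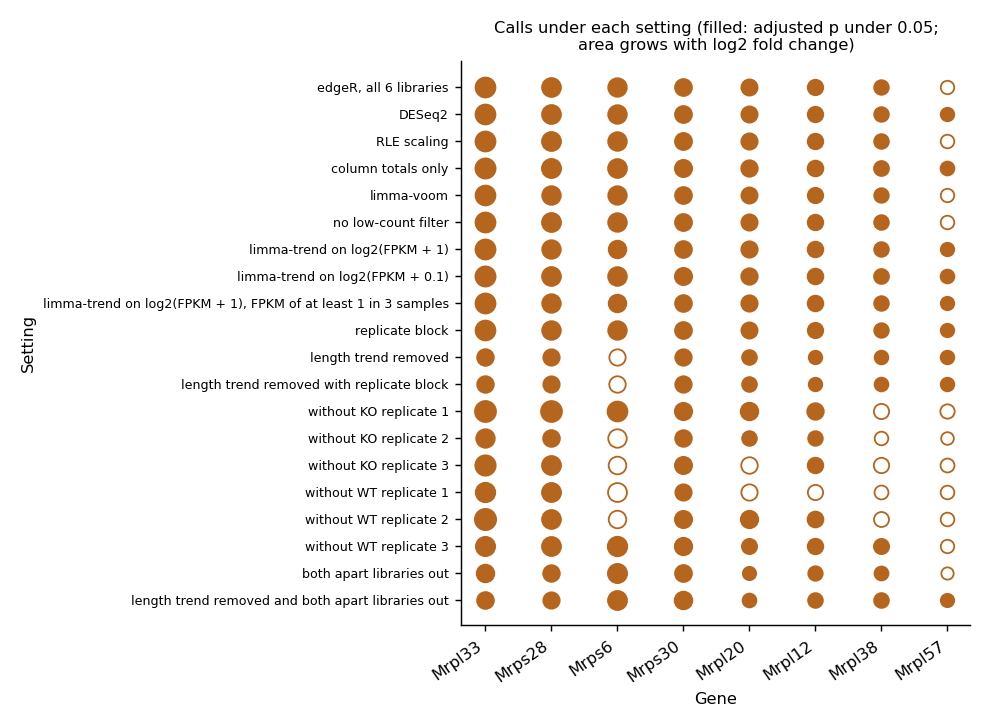
Calls of 8 members (columns) in edgeR on all 6 libraries (top row) and under each alternative (rows below), with filled circles for an adjusted p under 0.05 and an area that grows with the log2 fold change. Mrpl33, Mrps28 and Mrps30 are filled in every row, whereas Mrps6 and Mrpl38 lose their call in several rows that leave out 1 library.

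Several large-subunit genes, named after their values were seen, lay close to the threshold. Mrpl34, a protein with a bacterial counterpart, had 61.5, 68.4 and 58.3 FPKM in KO libraries, against 45.3, 54.3 and 41.8 FPKM in WT libraries, with a log2 fold change of 0.39 ± 0.13 SE (edgeR, adjusted p = 0.0575). Mrpl58, a peptidyl-tRNA hydrolase also termed ICT1 that releases stalled peptides, had 37.8, 44.5 and 43.6 FPKM in KO libraries, against 31.3, 35.1 and 29.9 FPKM in WT libraries (0.37 ± 0.12 SE, edgeR adjusted p = 0.0579). Mrpl55, a mitochondria-specific protein, had 19.7, 21.9 and 23.3 FPKM in KO libraries, against 15.7, 18.4 and 14.9 FPKM in WT libraries (0.38 ± 0.13 SE, edgeR adjusted p = 0.0616). In each of the 3 the groups did not overlap and WT replicate 3 was the lowest library, and they were called in 8, 6 and 5 of the 18 alternatives. With the length trend removed they were at 0.21, 0.21 and 0.28 without a call (edgeR, adjusted p = 0.1704, 0.1600 and 0.102). Without both libraries that stand apart they were at 0.23, 0.25 and 0.29, again without a call. Mrps36, the member now placed in another complex, had 42.9, 50.8 and 45.7 FPKM in KO libraries, against 40.1, 41.6 and 36.2 FPKM in WT libraries (0.22 ± 0.12 SE, edgeR adjusted p = 0.239), a log2 fold change that was 0.05 with the length trend removed. Its groups did not overlap.

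No member was called lower in all 6 libraries, and the lowest fold changes were small. Mrpl19, a large-subunit protein with a bacterial counterpart, had 5.65, 6.73 and 5.75 FPKM in KO libraries, against 7.36, 8.099 and 6.13 FPKM in WT libraries, and Mrps9, its like in the small subunit, had 9.73, 12.3 and 9.64 FPKM in KO libraries, against 12.1, 13.6 and 10.8 FPKM in WT libraries. In both genes the groups overlapped. Log2 fold changes were -0.27 ± 0.13 SE for Mrpl19 and -0.22 ± 0.14 SE for Mrps9 (edgeR, adjusted p = 0.203 and 0.342). Without KO replicate 2 and WT replicate 3 both were called lower, at -0.48 for Mrpl19 and -0.45 for Mrps9 (edgeR, adjusted p = 0.00330 and 0.00850). Mrpl36, named after its values were seen, was the other member called lower then, at -0.31 (edgeR, adjusted p = 0.0372), against -0.05 in all 6 libraries. Exons of Gcfc2 on the opposite strand overlap 1962 bases of Mrpl19, whose length in the deposited table is 5016. Part of the Mrpl19 count is thus uncertain unless counting used the strand.

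Mrpl48 of the central protuberance and Mrps24 of the small subunit followed among the lowest values. Mrpl48 had 4.68, 5.36 and 4.34 FPKM in KO libraries, against 5.21, 5.71 and 4.17 FPKM in WT libraries, and Mrps24 had 56.3, 71.6 and 76.9 FPKM in KO libraries, against 67.6, 76.6 and 66.2 FPKM in WT libraries. Groups overlapped in both, with log2 fold changes of -0.09 for Mrpl48 and -0.06 for Mrps24 (edgeR, adjusted p = 0.748 and 0.815).

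Levels differed far more between members than between genotypes. Mean FPKM over the 6 libraries ran from 2.40 for Mrpl1 to 143 for Mrpl52, a ratio of 59.8, with a median of 22.7 beside 5.16 for all tested genes. The gene length behind the deposited FPKM was not always the median length of the gene's own coding transcripts. It was more than 1.5-fold that length in 21 members and more than 3-fold in 9, and it was shorter in others. Per kilobase of those transcripts the lowest gene was Mrpl47, at 2.51 CPM per kilobase, and the highest again Mrpl52, at 141. Mrpl47, at 9.7 FPKM, had a length of 872 nucleotides behind its FPKM and a median coding transcript of 3364. The order of low genes thus depended on the length used.

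Mrpl52, a mitochondria-specific large-subunit protein, had 146, 179 and 152 FPKM in KO libraries, against 134, 135 and 114 FPKM in WT libraries, with a log2 fold change of 0.30 ± 0.12 SE (edgeR, adjusted p = 0.132). KO replicate 2 was the highest and WT replicate 3 the lowest. With the length trend removed its log2 fold change was 0.03 (edgeR, adjusted p = 0.858), and without both libraries 0.10. Mrpl54 of the large subunit had 88.5, 104 and 91.99 FPKM in KO libraries, against 73.8, 80.1 and 75.4 FPKM in WT libraries (0.29 ± 0.11 SE, edgeR adjusted p = 0.0976), a log2 fold change that was 0.08 with the length trend removed. Mrps21 of the small subunit had 84.8, 102 and 97.9 FPKM in KO libraries, against 86.98, 89.6 and 83.3 FPKM in WT libraries (0.11 ± 0.11 SE, edgeR adjusted p = 0.5599), a log2 fold change that was -0.12 with the length trend removed.

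Among the lowest genes by FPKM, Mrpl1 had 2.36, 2.76 and 2.26 FPKM in KO libraries, against 2.25, 2.699 and 2.03 FPKM in WT libraries. Mrps25 had 4.36, 4.84 and 3.41 FPKM in KO libraries, against 3.92, 3.59 and 3.77 FPKM in WT libraries, and Mrpl3 had 5.396, 5.57 and 4.88 FPKM in KO libraries, against 4.79, 4.82 and 3.85 FPKM in WT libraries. Log2 fold changes were 0.06 for Mrpl1, 0.14 for Mrps25 and 0.22 for Mrpl3, and none was called (edgeR, adjusted p = 0.844, 0.569 and 0.267). Without both libraries that stand apart they were at -0.14, 0.01 and 0.06. Exons of Nr2c2 on the opposite strand overlap 4590 bases of Mrps25, whose length in the deposited table is 6076. The count of Mrps25 is thus uncertain unless counting used the strand, which is not stated.

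The 3 Mrps18 genes are paralogs of which a mitoribosome holds Mrps18a in the large subunit and Mrps18b and Mrps18c in the small subunit. Mrps18a averaged 50.1 ± 1.38 FPKM in KO libraries and 47.8 ± 1.11 FPKM in WT libraries (SD, n = 3 each). Mrps18b averaged 14.3 ± 1.93 FPKM in KO libraries and 11.03 ± 1.203 FPKM in WT libraries (SD, n = 3 each), and its groups did not overlap. Mrps18c averaged 46.5 ± 5.52 FPKM in KO libraries and 45.3 ± 8.64 FPKM in WT libraries (SD, n = 3 each). Log2 fold changes were 0.05 ± 0.10 SE for Mrps18a, 0.35 ± 0.14 SE for Mrps18b and 0.02 ± 0.15 SE for Mrps18c, and none of the 3 was called (edgeR, adjusted p = 0.812, 0.122 and 0.955). With the length trend removed Mrps18a and Mrps18c lay below 0, at -0.09 and -0.20, and without both libraries Mrps18b was at 0.15 and Mrps18c at -0.23. Other genes' transcripts share 16.6% of the 32-base words of Mrps18b and 31.8% of those of Mrps18c.

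As a list, the mitoribosomal genes lay slightly above 0. Their median log2 fold change was 0.13 (interquartile range 0.04 to 0.28), beside -0.01 for all tested genes, and 65 of 78 (83.3%) lay above 0, beside 48.3% of all tested genes. Every KO library exceeded every WT library in 30 members (38.5%), beside 18.2% of all tested genes, and the reverse held in 0 members, beside 15.5%. Summed over the 78 genes, KO libraries held 2713, 3158 and 2824 CPM, against 2584, 2705 and 2361 CPM in WT libraries. The groups did not overlap, but the distance between KO replicate 1 and WT replicate 2 was small. The means were 2898 ± 232 CPM in KO libraries and 2550.0 ± 174.5 CPM in WT libraries (SD, n = 3 each), a ratio of 1.14.

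The medians of the subunits lay close together, and their difference was not tested. The median log2 fold change was 0.14 over the 49 large-subunit genes and 0.11 over the 29 small-subunit genes by symbol. Of these, 4 (8.16%) and 3 (10.3%) were called higher, beside 8.44% of all tested genes. Placing Mrps30 and Mrps18a in the large subunit gave the same medians, with 5 of 51 (9.8%) and 2 of 27 (7.41%) genes called higher. Both shares were near that of all tested genes. Summed large-subunit levels were 1868, 2164 and 1922 CPM in KO libraries, against 1750.0, 1843 and 1586 CPM in WT libraries. The small subunit summed to 845, 993 and 902 CPM in KO libraries, against 834, 862 and 775 CPM in WT libraries, where KO replicate 1 lay below WT replicate 2. The ratio of large to small was 2.17 ± 0.0400 in KO libraries and 2.09 ± 0.0446 in WT libraries (SD, n = 3 each), and single libraries overlapped between the groups.

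The difference of the whole list sat mainly in 1 library of each group. KO replicate 2 was the highest of the 6 libraries for 55 of the 78 genes, and WT replicate 3 was the lowest for 49. Of all tested genes, 19.1% were highest in KO replicate 2 and 20.4% lowest in WT replicate 3. The median member deviated from its mean over the libraries by -0.01, 0.23 and 0.05 on the log2 scale in KO replicates 1 to 3, and by -0.06, 0.01 and -0.22 in WT replicates 1 to 3. The other libraries lay close to the mean.

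**Figure D4:**
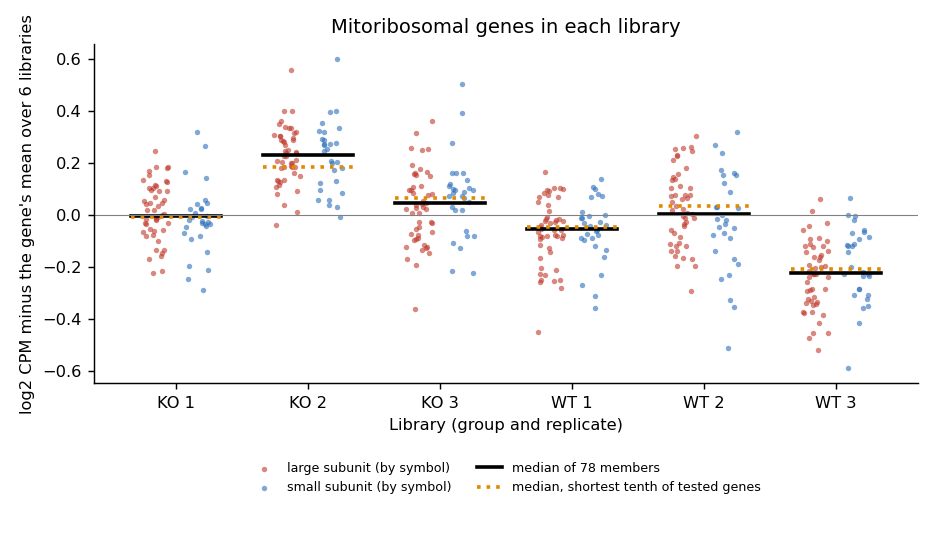
Deviation of each of the 78 genes from its own mean over the 6 libraries (y axis, log2), per library, with KO libraries left of WT libraries, the median of the members (black) and the median of the shortest decile of all tested genes (dotted). The median of the members sits at 0.23 in KO replicate 2 and at -0.22 in WT replicate 3, and between -0.06 and 0.05 in the other libraries.

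Without KO replicate 2 and WT replicate 3 the median log2 fold change of the members was 0.01, beside -0.01 for all tested genes, and 41 of 78 lay above 0. In that comparison 8 members (10.3%) were called higher and 3 (3.85%) lower, beside 13.7% and 12.3% of all tested genes. The members called higher there included Mrpl33, Mrps28, Mrps30, Mrpl12, Mrpl20, Mrpl38 and Mrps6, together with Mrps2, named after its values were seen (0.24 in all 6 libraries, without a call, and 0.40 without those libraries). The 4 libraries left differ between the groups on the second component as well, at -12.6 and -10.4 in KO and 8.21 and 12.4 in WT, so genotype and what goes with that component cannot be told apart in them. Stroma marker sums were 419, 346 and 400.4 CPM in KO replicates 1 to 3, against 192, 162 and 197 CPM in WT replicates 1 to 3, higher in KO as the members were, and lowest of the KO libraries in KO replicate 2. Their part in the members' values was not tested.

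Gene length went with the same libraries. Members are short, with a median length of 1412 nucleotides in the deposited table beside 3514 for all tested genes, and 37 of the 78 fall in the shortest decile of tested genes (206 to 1343 nucleotides). Over all genes of that decile, the median log2 fold change was 0.13, beside 0.14 for the 37 members in it. In the second decile it was 0.03 over all genes and 0.13 over the 15 members, and in the third decile -0.01 over all genes and 0.16 over 9 members. From the fourth decile on, medians over all genes were -0.02 to -0.05. The median deviation of all genes of the shortest decile was 0.19 in KO replicate 2 and -0.21 in WT replicate 3, close to the members' own values.

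Across members, length and log2 fold change had a Spearman correlation of -0.23 (n = 78 genes, which share the 6 libraries), beside -0.10 over 12219 genes. Once each library's trend on length was removed, this correlation was 0.21 over the members. Without both libraries that stand apart it was -0.22 over the members and of the other sign, at 0.09, over 12275 genes. With each library's trend on length removed, the median of the members was 0.08, beside 0.00 for all tested genes, and was 0.10 for the large and 0.05 for the small subunit. The shorter 39 members then had a median of 0.02 and the longer 39 a median of 0.11, against 0.16 and 0.13 before. With the trend removed and both libraries left out, an alternative chosen after seeing the data, the median of the members was 0.03.

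**Figure D5:**
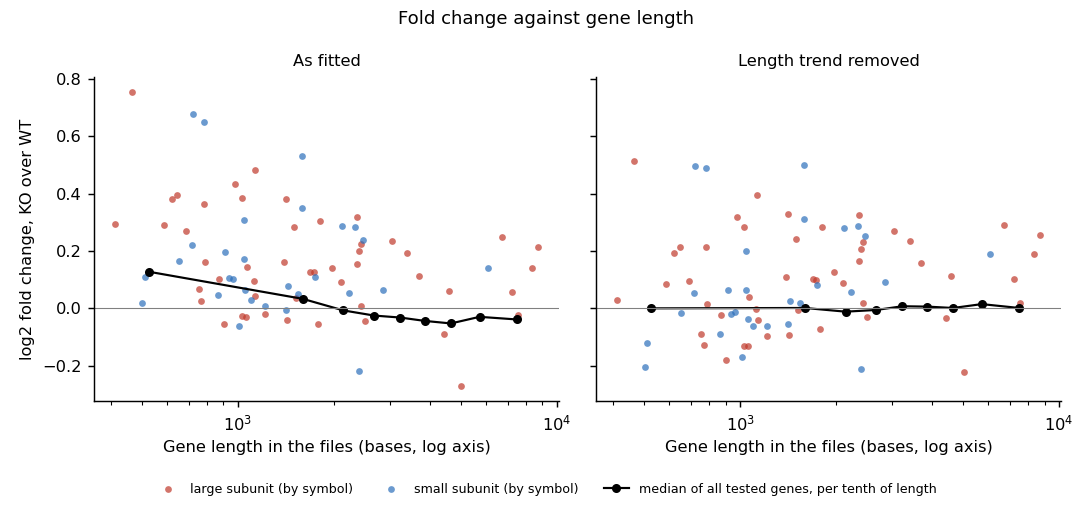
Log2 fold change, KO over WT (y axis), of each member against gene length in bases (x axis, log scale), before (left) and after (right) removal of each library's trend on length, with the median of all tested genes per decile of length as a black line. The line starts at 0.13 and ends below 0 on the left and runs near 0 on the right, and the longest decile, which holds no member, is not drawn.

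Ancestry and shared sequence did not separate the members by their medians. Members with a bacterial counterpart (46) and without one (31) both had a median log2 fold change of 0.13. Of these, 5 (10.9%) and 2 (6.45%) were called higher, beside 8.44% of all tested genes. The 25 members that share no 32-base word with another gene had a median of 0.14, and the 17 that share over 10% of their words a median of 0.16. The highest shares were 84.3% in Mrpl53, 35.5% in Mrps34 and 34.9% in Mrpl27, and counts of these genes are uncertain to that extent. An exon on the opposite strand overlaps 28 members.

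The promoters of nuclear genes for mitochondrial proteins are known for sites of NRF1, of ETS factors such as GABP (also termed NRF2) and of YY1. RefSeq promoter windows on GRCm38.p6, from 250 bases before to 50 bases after the annotated start, were matched for 69 of the 78 genes (75 windows). They were searched on both strands for GCGC and TGCGC parted by any 1 base (NRF1), CCGGAAG (ETS), GCCATNTT (YY1) and the E-box CACGTG bound by Myc and other factors. The letters of NRF1 were found in 17.3% of member windows, beside 9.83% of windows of tested genes and 4.6% of all 32851 windows. Those of ETS were in 34.7% of member windows (17.4% and 8.86%), those of YY1 in 28% (8.29% and 6.05%) and the E-box in 9.33% (9.87% and 7.15%). At least 1 of NRF1, ETS and YY1 was in 62.7% of member windows, beside 30.8% for tested genes and 17.4% for all windows, and no ETS match overlapped a YY1 match in a member window. A match of letters is a description and not a bound site.

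The 13 member windows with the NRF1 letters are shown as 30 bases from around the first match, 5′ to 3′ on the strand of the gene, so that the matches and their flanks can be read. The core is alike in all because the search required it. Capitals mark the matches, which read GCGC, A, any base and GCGC where the motif lies on the other strand. Mrps26 has 2 overlapping matches, both in capitals, and Mrpl45 has 3 in its window, of which 1 is shown.
Mrpl12, chr11:120484546-120484575, plus strand: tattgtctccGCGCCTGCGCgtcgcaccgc
Mrpl14, chr17:45686343-45686372, plus strand: aacccctggcGCGCAGGCGCagcgtgcggg
Mrpl17, chr7:105811117-105811146, minus strand: aggctctgatGCGCACGCGCaaacgcggta
Mrpl30, chr1:37890384-37890413, plus strand: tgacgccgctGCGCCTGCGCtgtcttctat
Mrpl32, chr13:14613105-14613134, minus strand: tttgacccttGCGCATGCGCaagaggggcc
Mrpl39, chr16:84735350-84735379, minus strand: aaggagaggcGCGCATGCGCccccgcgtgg
Mrpl44, chr1:79775973-79776002, plus strand: agaagcacttGCGCACGCGCagtacactag
Mrpl45, chr11:97315586-97315615, plus strand: gaagcctcctGCGCAGGCGCagctggctct
Mrpl57, chr14:57826172-57826201, plus strand: tttgaatcctGCGCAGGCGCagaaggcgtc
Mrpl9, chr3:94443298-94443327, plus strand: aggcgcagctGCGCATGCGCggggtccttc
Mrps21, chr3:95871586-95871615, minus strand: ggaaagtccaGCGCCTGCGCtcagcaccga
Mrps26, chr2:130563745-130563774, plus strand: tccgggccggGCGCAGGCGCAGGCGCtggc
Mrps9, chr1:42851218-42851247, plus strand: tgggaggtctGCGCCTGCGCagtctccagg

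The medians of log2 fold change with and without each motif lay close together. The median was 0.10 with and 0.13 without NRF1, 0.15 with and 0.11 without ETS, 0.13 with and 0.12 without YY1, and 0.09 with and 0.13 without the E-box. The motifs also differed among the called genes. Of the 5 called genes with a window, Mrpl12 had the NRF1 letters from base -81, Mrpl33 the ETS letters from -3, Mrps30 the YY1 letters from 16 on the other strand, Mrpl20 the E-box from -33, and Mrps6 none of the 4. Their promoters are printed for the first 4 of these, as 250 bases before and 30 bases from the start, on the strand of the gene, with the motif in capitals, so that the position of each motif against the start can be seen.
Mrpl33, chr5:31613701-31613980, plus strand: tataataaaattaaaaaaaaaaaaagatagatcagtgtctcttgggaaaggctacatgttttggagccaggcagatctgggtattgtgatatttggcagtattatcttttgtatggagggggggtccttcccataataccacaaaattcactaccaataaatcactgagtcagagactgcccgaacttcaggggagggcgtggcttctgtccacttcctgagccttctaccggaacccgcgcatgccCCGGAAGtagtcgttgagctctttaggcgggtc
Mrps30, chr13:118387223-118387502, minus strand: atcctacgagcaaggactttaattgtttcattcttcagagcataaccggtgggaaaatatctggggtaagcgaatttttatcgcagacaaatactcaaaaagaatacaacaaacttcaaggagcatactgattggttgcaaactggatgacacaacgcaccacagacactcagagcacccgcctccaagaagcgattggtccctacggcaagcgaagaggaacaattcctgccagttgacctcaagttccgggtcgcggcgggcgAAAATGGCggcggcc
Mrpl12, chr11:120484387-120484666, plus strand: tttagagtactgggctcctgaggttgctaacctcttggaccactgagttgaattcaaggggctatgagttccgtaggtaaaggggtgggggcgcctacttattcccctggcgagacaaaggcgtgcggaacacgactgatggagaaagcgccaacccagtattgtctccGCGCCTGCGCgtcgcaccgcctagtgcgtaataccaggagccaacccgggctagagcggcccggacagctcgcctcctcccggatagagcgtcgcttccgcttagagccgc
Mrpl20, chr4:155802628-155802907, plus strand: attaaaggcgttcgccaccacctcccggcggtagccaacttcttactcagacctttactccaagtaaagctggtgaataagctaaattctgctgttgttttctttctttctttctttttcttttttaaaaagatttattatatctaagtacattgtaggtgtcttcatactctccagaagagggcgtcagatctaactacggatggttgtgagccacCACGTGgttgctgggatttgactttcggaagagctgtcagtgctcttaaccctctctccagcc

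Other genes of mitochondrial translation and gene expression were examined in 6 lists of 88 genes, of which 86 were tested. Of these, 5 were called higher and 3 lower, beside 8.44% and 6.21% of all tested genes. Among 5 mitoribosome proteins with other symbols the median log2 fold change was 0.31 and 1 was called. The median was 0.14 with the length trend removed and 0.09 without both libraries that stand apart. The called gene was Gadd45gip1, a large-subunit protein also termed CRIF1, with 21.6, 19.7 and 21.1 FPKM in KO libraries, against 12.9, 14.5 and 13.1 FPKM in WT libraries. The groups were far apart, by a log2 fold change of 0.60 ± 0.10 SE (edgeR, adjusted p = 0.0027), and the call held in all 18 alternatives. Dap3, a GTP-binding small-subunit protein, and Chchd1 were at 0.31 and 0.33 without a call (edgeR, adjusted p = 0.152 and 0.189), and at 0.12 and 0.05 without both libraries. With these 5 proteins added, 8 of 83 mitoribosomal genes (9.64%) were called higher.

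Of 16 mitochondrial translation factors and partners tested, 1 was called, lower in KO, with a median of 0.03. The gene that fell was Oxa1l, which encodes the insertase that places mitochondrially made proteins into the inner membrane. It had 22.1, 23.3 and 25.3 FPKM in KO libraries, against 33.2, 36.4 and 34.6 FPKM in WT libraries. The log2 fold change was -0.58 ± 0.10 SE (edgeR, adjusted p = 0.00253), and the call held in all 18 alternatives. The elongation factor Tufm was at 0.19 and the release factor Mtrf1 at -0.34 without a call (edgeR, adjusted p = 0.201 and 0.325).

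Of 26 tested factors of mitoribosome assembly and rRNA modification, 1 was called, lower in KO, with a median of 0.01. Ngrn, which binds and stabilises the large mitochondrial rRNA, had 12.4, 15.6 and 14.4 FPKM in KO libraries, against 23.9, 24.8 and 21.04 FPKM in WT libraries. Its log2 fold change was -0.74 ± 0.13 SE (edgeR, adjusted p = 0.00262), again called in all 18 alternatives. Trub2, a pseudouridine synthase homolog, was at 0.51 (edgeR, adjusted p = 0.0585), with a call in 9 of the 18 alternatives, and Mpv17l2, an assembly factor, at 0.32 (0.0864).

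Of 20 mitochondrial aminoacyl-tRNA synthetases, which load tRNAs with amino acids, 2 rose and 1 fell, with a median of 0.04. The threonine enzyme Tars2 had 8.94, 8.13 and 9.12 FPKM in KO libraries, against 6.29, 5.795 and 5.34 FPKM in WT libraries, a log2 fold change of 0.57 ± 0.11 SE (edgeR, adjusted p = 0.00443) that was called in all 18 alternatives. The methionine enzyme Mars2 had 0.985, 1.41 and 1.47 FPKM in KO libraries, against 0.6001, 0.841 and 0.729 FPKM in WT libraries (0.81, edgeR adjusted p = 0.0456), and the asparagine enzyme Nars2 had 0.291, 0.238 and 0.265 FPKM in KO libraries, against 0.406, 0.422 and 0.358 FPKM in WT libraries (-0.60, edgeR adjusted p = 0.0322). Both calls rest on low levels. The Mars2 call was lost without any 1 library other than KO replicate 1, and the Nars2 call without any other than WT replicate 3.

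The 10 genes of mitochondrial DNA upkeep and transcription had a median of -0.03. Smallest in adjusted p were the nuclease Mgme1, the polymerase subunit Polg2 and the transcription factor Tfam, at -0.35, -0.29 and -0.19 without a call (edgeR, adjusted p = 0.145, 0.423 and 0.499). Of 9 tested regulators of mitochondrial gene expression, 2 rose, with a median of 0.03. Myc, a transcription factor that binds the E-box, had 6.95, 5.95 and 5.76 FPKM in KO libraries, against 2.28, 2.198 and 3.44 FPKM in WT libraries. It had a log2 fold change of 1.21 ± 0.18 SE (edgeR, adjusted p = 0.00126), called in all 18 alternatives. Pprc1, a coactivator related to PGC-1, had 7.52, 5.39 and 6.98 FPKM in KO libraries, against 4.33, 3.03 and 5.19 FPKM in WT libraries (0.64 ± 0.18 SE, edgeR adjusted p = 0.0379), and its call was lost without KO replicate 1 or 3 or WT replicate 1 or 2. Gabpb2, a partner of the ETS factor GABP, was at -0.35 (edgeR, adjusted p = 0.0544).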

How the data were processed

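Per the submitters' processing notes, fastp, HISAT2, HTSeq and the mm10 build were used. No versions are given in the sources used here, nor whether counting used the strand. The authors deposited whole-number read counts per gene and FPKM values, and in their files FPKM equalled the count over 1 length per gene and the column total (within 1% in 99.99% of the values with 10 counts or more). Gene length was taken from that relation. Counts were tested with edgeR 4.0.16 under R 4.3.3, using TMM scaling after filterByExpr and the quasi-likelihood test, with Benjamini-Hochberg adjustment over 12219 genes at a threshold of 0.05. The SE of a log2 fold change is its size over the root of the F statistic. CPM values use the column total. Alternatives were DESeq2 1.42.0, limma 3.58.1 (voom, and trend on log2 values of FPKM plus 1 or 0.1), other scalings and filters, a replicate block, a length trend removed by lowess (span 0.3), and left-out libraries. FPKM folds on a log2(value + pseudocount) scale understate changes of low genes. Totals of 32631163 to 40913819 counts set the counting error. The SE and p-values of edgeR also take in the spread between libraries. Shared words were sought in GENCODE M21 transcripts. Promoters came from RefSeq. The procedure was tested on simulated data. Groups came from the sample titles.

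The members, gene lists and tests were chosen with earlier results of these data known. Named genes were members called with or without the length trend, the 4 highest and 4 lowest by fold change and by FPKM, the Mrps18 paralogs, and up to 3 genes of smallest adjusted p per list.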

Additional observations from a re-analysis of the deposited data

How the results depend on the processing

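Mrpl33, Mrps28, Mrps30, Gadd45gip1, Oxa1l, Ngrn, Tars2 and Myc kept direction and call in all alternatives. Members called higher numbered 7 in edgeR, 11 with DESeq2 and with limma-trend on FPKM of at least 1, 12 and 13 with limma-trend at pseudocounts of 1 and 0.1, and 14 with the replicate block. These are 14.1%, 14.1%, 15.4%, 16.7% and 17.9% of the members, beside 8.88%, 7.67%, 8.45%, 8.9% and 11.1% of all genes tested in the same fits. They numbered 3 to 7 when 1 library was left out, with 4 without KO replicate 3 and 3 without WT replicate 1 (5.13% and 3.85%, beside 5.99% and 5.63% of all genes). Members called lower were 3 without both libraries that stand apart, with or without the length trend (3.85%, beside 12.3% and 12.4% of all genes). The median of the members was 0.0095 and that of the large subunit 0.0091 without both libraries, and 0.04 to 0.19 and 0.09 to 0.22 with 1 library left out. Over the 6 lists, 9 were called higher with the replicate block, with the length trend kept or removed, beside 11.1% and 11.7% of all genes. Without both libraries 11 were called higher and 5 lower, beside 13.7% and 12.3% of all genes. With the length trend also removed 14 were called higher and 7 lower, beside 16% and 12.4%. With 1 library left out the lowest number called higher was 3, without KO replicate 3 or WT replicate 1 (5.99% and 5.63% of all genes).

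No changed direction came with a call. With 1 library left out, Mrpl1 ran from -0.048 (without KO replicate 2) to 0.19, Mrpl48 from -0.19 to 0.021 (without WT replicate 2), Mrps24 from -0.13 to 0.083 (without KO replicate 1), and Mrps18c from -0.10 to 0.17, below 0 without KO replicate 2 or WT replicate 3. Mrpl1 was at -0.14 without both and -0.12 with the length trend also removed. With the length trend removed, without and with the replicate block, Mrps18a was at -0.091 and -0.087, Mrps18c at -0.20 and -0.20, and Mrps21 at -0.12 and -0.12. Mrps18c was at -0.23 without both libraries and -0.28 with the trend also removed, where Mrps21 was at -0.043 and Mrps25 at -0.0092. The cause was not tested.

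Same-numbered KO and WT libraries deviated together with correlations of -0.10, 0.23 and 0.18 over genes, so the numbers were not taken as pairs, and KO replicate 1 correlated best with WT replicate 3 (0.26). With 3 libraries a group, an exact permutation test of a single value cannot go below p = 0.1. The lowest count of a member in a library was 138.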
